A study of Mus musculus with 12 samples.

Results

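Eid3, Rpa1 and Ovca2 are nuclear genes whose RNA stood out in pulldowns of double-stranded RNA from mouse intestinal epithelium, and Txnrd1, Smyd4 and Dph1 are the genes that overlap or adjoin them. These 6 genes are described here out of 48526 gene rows in the deposited counts. Eid3, Rpa1 and Ovca2 were chosen for their pulldown values, so those values are given as a description with no test. The 3 neighbours were chosen by position, so they were tested in each comparison. The RNA level in input was tested for each of the 6 genes. The pulldown values that chose Eid3, Rpa1 and Ovca2 are taken relative to these same input libraries. Their input tests are therefore not fully independent of the choice.

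Whole epithelial cells were isolated with EDTA from the proximal small intestine of 4 female mice aged 3 months, 2 per group. In the DKO animals loss of 2 related lysine acetyltransferase genes, Kat2a and Kat2b, was induced with tamoxifen at 100 mg/kg, injected daily on 4 days, in ethanol and corn oil. The control animals, labelled only as control, received the ethanol and corn oil without tamoxifen, so genotype and drug exposure changed together and cannot be told apart. Epithelium was collected 2 days after injections ended, and the alleles, strain and Cre driver are not given in the sources used here. Each animal gave an input library and a pulldown library with each of the antibodies J2 and K1, which bind double-stranded RNA, and this makes 12 libraries in 6 groups. The series asked whether double-stranded RNA differs in epithelium that lacks both enzymes.

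Library depth ran from 2220291 counts in genes (DKO K1 replicate 2) to 16139531 (control K1 replicate 1), and each pulldown library of the DKO animals held fewer counts than any other library. Reads aligned to several places made up between 5.54% and 8.05% of the reads listed in each file in input and control pulldowns, and between 15.8% and 46.7% in DKO pulldowns. The 2 DKO libraries of one antibody correlated at r = 0.840 for J2 and 0.920 for K1 across genes, and the replicates of the other groups at 0.982 or more. Summed markers of epithelium lay between 4341 and 5233 CPM (read counts normalised to library size, with the trimmed mean of M values, TMM, taken over the 12 libraries) in input. Markers of leukocytes summed to between 57.9 and 68.6 CPM in control input and between 42.5 and 45.7 CPM in DKO input, and those of stroma, vessels and muscle to between 6.70 and 11.2 CPM. In input, Kat2a was at 18.1 and 16.8 CPM in control against 7.27 and 11.5 CPM in DKO, and Kat2b was at 29.3 and 25.3 CPM in control against 10.2 and 8.90 CPM in DKO. By edgeR's quasi-likelihood test with Benjamini-Hochberg adjustment, used for every adjusted p here unless another tool is named, both fell in DKO (Kat2a adjusted p = 0.0205, Kat2b adjusted p = 6.32e-04).

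J2 and K1 recognise the shape of the RNA duplex and not its sequence. In animal cells such duplexes form where a transcript meets its antisense partner, or where a transcript holds a sequence and its inverted copy and folds back into a hairpin, most often through repeats in introns and 3′ untranslated regions. The pulldown therefore reports how much of a gene's RNA is bound to the antibody, directly or through a longer RNA it is part of, relative to all other RNA in the same tube. A pulldown value relative to input is called enrichment here, on the log2 scale. SE is the standard error from the fit, in which control and DKO share an estimate of the spread. It therefore does not show how far the animals of either genotype differ from each other.

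On GRCm38, Eid3 (chr10:82866626-82867930, plus strand) has 1 exon of 1305 bases and lies wholly inside the Txnrd1 gene (chr10:82833951-82897712, plus strand). It lies in an intron of every coding Txnrd1 transcript, at least 5007 bases from the nearest Txnrd1 exon. Both genes are read in the same direction, so counts over the Eid3 exon do not separate Eid3 transcripts from unspliced Txnrd1 RNA. Rpa1 (chr11:75298166-75348324, minus strand) and Smyd4 (chr11:75348433-75405705, plus strand) start 108 bases apart and are read away from each other. Ovca2 (chr11:75175942-75178835) and Dph1 (chr11:75177643-75191241) lie on the minus strand of the same chromosome, 106924 bases from Rpa1, and share 969 exon bases. A further 641 exon bases of Ovca2 face the non-coding gene 1700016P03Rik on the opposite strand. Exon bases that no other gene uses made up 39.7% of Ovca2, 64.0% of Dph1, 99.2% of Rpa1 and 100% of the other members, and counts were made without strand.

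**Figure D1:**
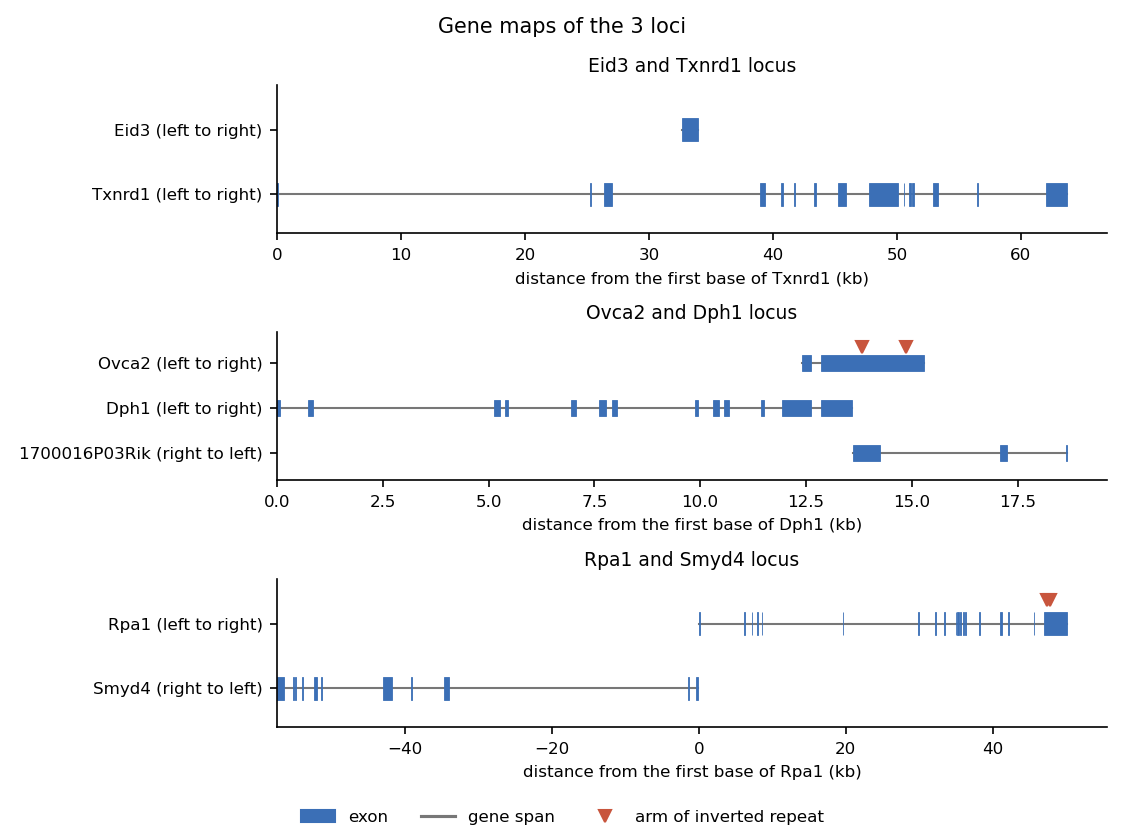
Exons (blue boxes) and gene spans (grey lines) of the 6 genes and 1700016P03Rik in GENCODE M21, against distance in kb from the first base of one gene of each locus. Red triangles mark the arms of inverted repeats found in spliced transcripts. The Eid3 exon sits in a Txnrd1 intron, the last exon of Dph1 lies within Ovca2, Rpa1 and Smyd4 start side by side, and only Rpa1 and Ovca2 carry the triangles.

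Inverted repeats were searched for within 1 spliced transcript of each gene, because a transcript that holds one can pair with itself. Introns were not searched, so a repeat in an intron, such as the Txnrd1 intron around Eid3, would be missed. Among the 6 genes, Rpa1 and Ovca2 held an inverted repeat of at least 100 aligned columns at 70% identity or more. Eid3, Txnrd1, Smyd4 and Dph1 held none in the transcript searched. In Rpa1 the arms align over 125 columns at 79.2% identity, with 99 bases paired and 300 bases between the arms. In Ovca2 they align over 157 columns at 73.9% identity, with 116 bases paired and 884 bases between them. Both arms of both repeats lie in the 3′ untranslated region, after the stop codon. The best-paired 30 bases of each arm are printed 5′ to 3′ on the transcript strand (the minus strand of chromosome 11 in GRCm38), with paired bases in capitals; read from its other end, each 3′ arm is the partner of the 5′ arm above it.
Rpa1 5′ arm (chr11:75301011-75301040): ATTtTGTTATCTTCAAACAGaaATTaTGTC
Rpa1 3′ arm (chr11:75300554-75300583): GACAcAATccCTGTTTGAAGATAACAgAAT
Ovca2 5′ arm (chr11:75177449-75177478): CCTGCTGAGCCATgTCACcaTCcTTTtGTG
Ovca2 3′ arm (chr11:75176322-75176351): CACcAAAaGAcaGTGAgATGGCTCAGCAGG

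The Rpa1 windows pair at 26 of 30 bases and the Ovca2 windows at 25 of 30. All 153 bases of the Ovca2 5′ arm also face the exon of 1700016P03Rik, so a read there can come from either strand. Among the 15874 genes with a transcript searched and tested for J2, 206 (1.30%) held such a repeat. Their median J2 enrichment was 1.01 in control and 0.56 in DKO, against -0.08 and 0.10 in genes without one. For K1 the medians were 0.56 in control and 0.19 in DKO with a repeat, and 0.00 and -0.14 without. Most of the 50 most enriched genes held no such repeat. Of these 50, 8 held one in control J2, 4 in control K1, 2 in DKO J2 and 2 in DKO K1. In control these counts include Rpa1 and Ovca2. The repeats of Rpa1 and Ovca2 were sought after their enrichment was known, and a match is a description of sequence, not evidence of pairing in the cell.

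The 108 bases between Rpa1 and Smyd4 (chr11:75348325-75348432, GRCm38, plus strand, 68.5% G or C, from RefSeq's promoter windows) are shown because both genes start from them and both fell in input, as given further on; capitals mark the box CCAAT and the GC box GGGCGG on either strand, so that ATTGG and CCGCCC are matches on the minus strand.
Rpa1 to Smyd4: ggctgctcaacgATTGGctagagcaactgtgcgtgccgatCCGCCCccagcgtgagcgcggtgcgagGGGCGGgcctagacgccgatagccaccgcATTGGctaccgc
The stretch holds 2 matches to CCAAT, the box bound by NF-Y, and 2 to GGGCGG, bound by Sp factors. Of 32851 windows of 108 bases before a gene start, 19.9% hold any match to CCAAT and 25.5% any match to GGGCGG. The number of matches per window was not counted, and the windows were not chosen for a like share of G or C. Whether these matches have a part in the falls of Rpa1 and Smyd4 was not tested. The Smyd4 call rests on few counts and was lost with DESeq2, as given in the next paragraph. Neither CACGTG (in 3.36% of windows) nor TATAAA (in 5.87%) has a match here; both strands were searched, and no match overlaps another.

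Rpa1 encodes the large subunit of replication protein A, the complex that coats single-stranded DNA during replication and repair, and in intestine such genes are most active in the dividing crypt cells. In input, Rpa1 was at 17.9 and 19.2 CPM in control and at 7.27 and 8.51 CPM in DKO. Both DKO animals were below both control animals. Rpa1 fell by 1.23 on the log2 scale (SE 0.17, adjusted p = 0.00179), which is 2.34-fold lower. Its neighbour Smyd4, of the SET and MYND domain family of lysine methyltransferases, was at 2.29 and 2.14 CPM in control against 0.865 and 1.17 CPM in DKO. Smyd4 fell by 1.10 (SE 0.33, adjusted p = 0.0367) on 10 and 15 counts in DKO against 28 and 29 in control. The Smyd4 call was lost with DESeq2 (adjusted p = 0.213) and without control replicate 1, control replicate 2 or DKO replicate 1 (adjusted p between 0.124 and 0.158), and the fit over all 12 libraries lost both calls (Rpa1 adjusted p = 0.0985, Smyd4 adjusted p = 0.102).

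Of the 6 genes, 2 passed the test in input, both lower, where 35.9% of 15088 genes passed (18.8% higher and 17.1% lower). Eid3 was at 6.46 and 7.01 CPM in control against 8.13 and 7.49 CPM in DKO (log2 difference 0.22, SE 0.20, adjusted p = 0.437). Txnrd1, the cytosolic thioredoxin reductase, was at 254 CPM in both control animals and 258 and 263 CPM in DKO (0.04, SE 0.12, adjusted p = 0.813). In each of these genes both DKO animals were above both control animals, by a small margin. Ovca2, a serine hydrolase, was at 2.45 and 1.92 CPM in control against 1.38 and 2.65 CPM in DKO (-0.09, SE 0.38, adjusted p = 0.870). Dph1, which takes part in the first step of making diphthamide on elongation factor eEF2, was at 5.80 and 4.50 CPM in control against 2.77 and 4.37 CPM in DKO (-0.51, SE 0.29, adjusted p = 0.213). The groups of Ovca2 overlap, and those of Dph1 do not, by a narrow margin. In bulk RNA, fewer cells that express a gene and less RNA per cell cannot be told apart.

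The summed level of 6 proliferation markers moved with Rpa1. It was between 380 and 439 CPM in control input and between 121 and 163 CPM in DKO input. By the test 5 of the 6 were lower, where 17.1% of all genes were, and none was at 0. The 9 leukocyte markers were also lower in sum in both DKO inputs, as given above. Of 7 tested, 3 were lower and 1 higher, against 17.1% and 18.8% of all genes. The part of either in the fall of Rpa1 and Smyd4 was not tested. Of 9 other genes of the RPA and replication-stress list, 4 were lower and none higher, against 17.1% and 18.8% of all genes. Among them were Rpa2 (-1.52, adjusted p = 0.00413), the middle RPA subunit; Ticrr (-1.67, adjusted p = 0.00104), a replication initiator; and Etaa1 (-1.01, adjusted p = 0.0205), which binds RPA and activates ATR. The median of this list was -0.94, against 0.00 over all genes tested. Of 3 tested genes of the SMYD list other than Smyd4 itself, none passed in input (median -0.29), where 35.9% of all genes passed.

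Levels between genes were compared per kb of exon that no other gene uses. In control input, Txnrd1 was the highest at 35.9 ± 0.0554 CPM per kb (SD, n = 2), followed by Eid3 at 5.16 ± 0.298, Rpa1 at 3.35 ± 0.163, Dph1 at 2.99 ± 0.536, Ovca2 at 2.06 ± 0.356 and Smyd4 at 0.511 ± 0.0244. Rpa1 and Dph1 do not differ beyond their spread, and each of the other steps is wider than the spread. In control J2 the order was Txnrd1 at 68.7 ± 1.24 CPM per kb, Ovca2 at 67.7 ± 6.06, Rpa1 at 57.9 ± 2.47, Dph1 at 7.21 ± 1.16, Eid3 at 2.37 ± 1.17 and Smyd4 at 1.45 ± 0.116. Txnrd1 and Ovca2 do not differ there beyond their spread, nor do Eid3 and Smyd4. The places of Ovca2 and Dph1 depend on how reads over shared bases were counted, which is not given in the sources used here. Divided by all exon bases, a choice made after seeing the data, Ovca2 in control J2 was at 26.9 ± 2.41 CPM per kb, below Rpa1 at 57.5 ± 2.45, and in control input Dph1 was at 1.91 ± 0.343, below Rpa1 at 3.32 ± 0.162. In DKO J2, Eid3 was the highest of the 6 in both libraries (29.8 and 84.3 CPM per kb), followed by Txnrd1 (26.9 and 13.7) and Rpa1 (23.8 and 8.24), whose values overlap.

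**Figure D2:**
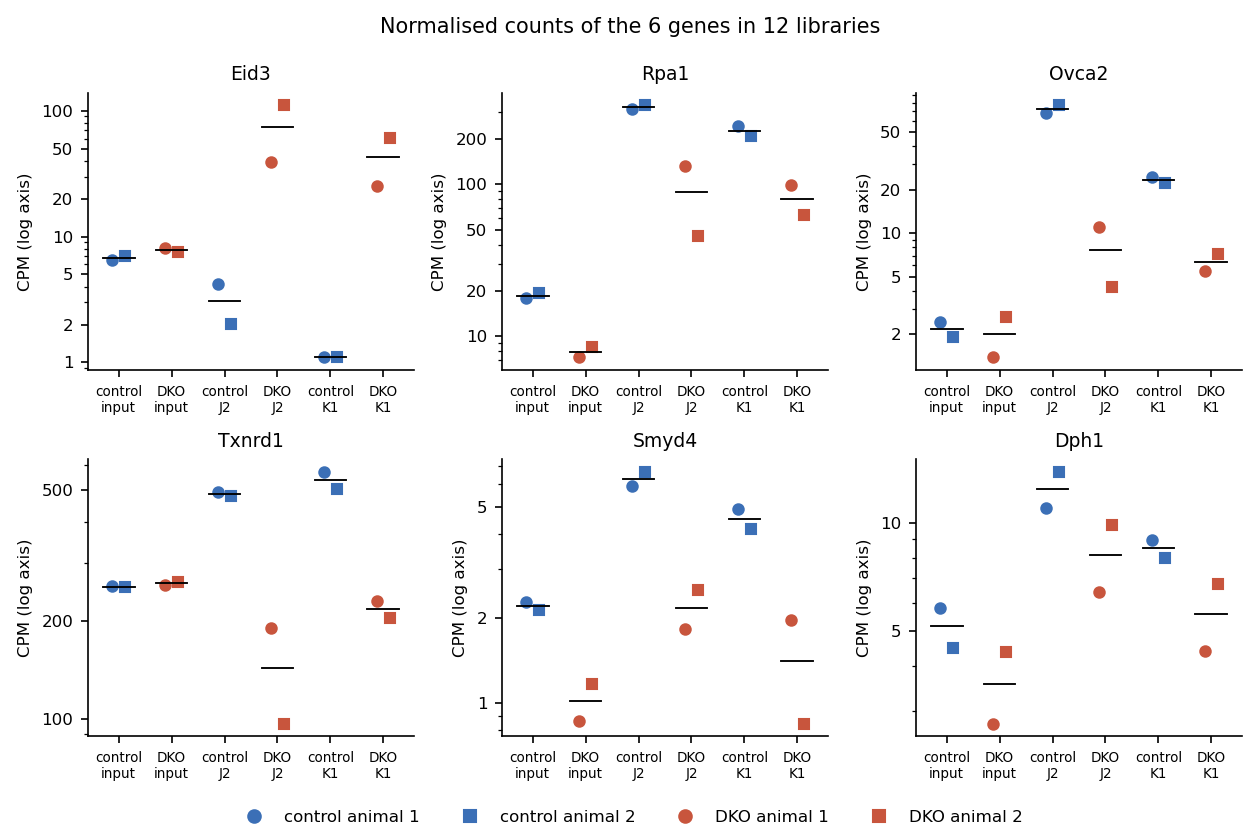
Normalised counts (CPM, log axis) of the 6 genes in each of the 12 libraries, by genotype and library type; points are animals and black lines are group means. Eid3 in DKO pulldowns sits at 25.1 CPM or more against 4.18 CPM or less in control pulldowns, while Txnrd1, Rpa1, Smyd4, Ovca2 and Dph1 have lower means in DKO than in control pulldowns of the same antibody.

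Eid3 encodes a member of the EID family, inhibitors of p300 and CBP acetyltransferases, and also a form of the non-SMC element 4 subunit of the SMC5/6 complex. Its counts were 79 and 95 in control input and 94 and 96 in DKO input. In J2 pulldowns they were 57 and 23 in control against 169 and 391 in DKO, although the DKO libraries were shallower. In K1 pulldowns they were 17 and 15 in control against 114 and 144 in DKO. Normalised, J2 gave 4.18 and 2.01 CPM in control against 38.8 and 110 CPM in DKO, and K1 gave 1.10 and 1.11 CPM in control against 25.1 and 60.7 CPM in DKO. Each DKO pulldown was above each control pulldown, and the inputs lay between them.

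Relative to input, Eid3 was 2.24-fold lower in control J2 (log2 -1.17, SE 0.52) and 6.36-fold lower in control K1 (-2.67, SE 0.44). It was 11.2-fold higher in DKO J2 (3.48, SE 0.52) and 5.76-fold higher in DKO K1 (2.53, SE 0.37). The change of enrichment, DKO minus control, was 4.65 for J2 (SE 0.73), rank 68 from the highest of 15923 genes, and 5.19 for K1 (SE 0.58), rank 39 of 15908. The DKO animals differed more from each other than the control animals did. Animal by animal, J2 minus input was -0.60 and -1.70 in control against 2.23 and 3.84 in DKO, and K1 minus input was -2.36 and -2.46 in control against 1.60 and 2.98 in DKO. In both antibodies the value was negative in both control animals and positive in both DKO animals, and DKO replicate 2 was the higher. Without DKO replicate 2 the change was 3.63 for J2 and 4.36 for K1, without DKO replicate 1 it was 5.26 and 5.74, and without control replicate 1 or 2 it was 5.31 or 3.99 for J2.

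Txnrd1 reduces thioredoxin with electrons from NADPH and is a textbook target of the oxidative stress factor NRF2. Its RNA moved the other way from that of the gene in its intron. J2 pulldowns gave 493 and 481 CPM in control against 190 and 96.8 CPM in DKO, and K1 pulldowns gave 570 and 506 CPM in control against 230 and 204 CPM in DKO. All control pulldowns were above the inputs, and all DKO pulldowns were below them. In control, Txnrd1 was enriched by K1 (1.01, SE 0.23, adjusted p = 0.00659, higher in 2 of 2 animals). For J2 the value was 0.87 (SE 0.38, adjusted p = 0.114). The J2 value was 0.75 without DKO replicate 1 and 0.88 without DKO replicate 2, fits that keep the same control libraries. The K1 call in control was lost without control replicate 1 (adjusted p = 0.339) or without control replicate 2 (adjusted p = 0.286).

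In DKO, Txnrd1 differed from input by -0.62 for J2 (SE 0.38, adjusted p = 0.246) and -0.16 for K1 (SE 0.23, adjusted p = 0.606). The J2 value was -1.33 without DKO replicate 1 and -0.21 without DKO replicate 2. Without TMM scaling it was -1.06 and passed (adjusted p = 0.00875). The difference between the genotypes did not pass the test, at -1.49 for J2 (SE 0.53, adjusted p = 0.134) and -1.18 for K1 (SE 0.33, adjusted p = 0.0632). With the animal as a block the K1 difference passed (-1.18, adjusted p = 0.0358). DESeq2 called it for both antibodies (adjusted p = 0.0250 for J2 and 0.00155 for K1), as did the fit without TMM scaling (adjusted p = 0.0266 and 0.0215). The adjusted p ranged from 7.12e-05 to 0.755 over the alternatives for J2, and that for K1 from 0.00155 to 0.724.

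The raw count of Eid3 over that of Txnrd1 needs no scaling between libraries. It was 0.0254 and 0.0276 in control input and 0.0316 and 0.0285 in DKO input. In J2 it was 0.00848 and 0.00419 in control against 0.204 and 1.14 in DKO, and in K1 it was 0.00192 and 0.00219 in control against 0.109 and 0.297 in DKO. The 4 inputs span a narrow range, control pulldowns lie below it and DKO pulldowns above it, with no overlap. Across the 12 libraries the log2 CPM of Eid3 and Txnrd1 had r = -0.929, over points that share depth and antibody. Markers of stroma, vessels and muscle, 7 genes, summed to between 10.9 and 41.2 CPM in control pulldowns and between 36.9 and 174 CPM in DKO pulldowns, where 1 of the 7 was at 0 in both DKO K1 libraries. The reads aligned to several places also rose in DKO pulldowns, and the part of either in the Eid3 values was not tested. Eid3 shares no stretch of 100 bases at 97% identity with another transcript searched.

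**Figure D3:**
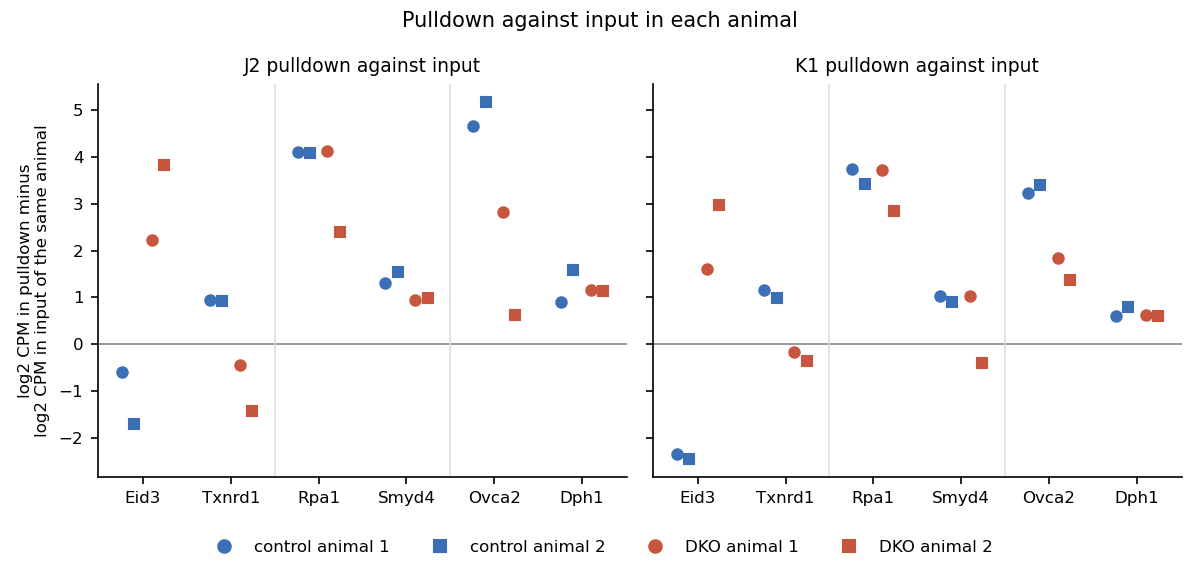
Difference between the log2 CPM of a pulldown and that of the input of the same animal, for J2 (left) and K1 (right); each point is 1 animal and the grey line is no difference. Eid3 is below the line in both control animals and above it in both DKO animals, Txnrd1 the reverse, and Rpa1 and Ovca2 lie above it in every animal.

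Among 10 tested genes of the SMC5/6 and EID list, which leaves out Eid3, the input comparison gave 1 higher (Nsmce1, 0.69, adjusted p = 0.0178) and 2 lower (Smc6, -0.69, adjusted p = 0.0114, and Nsmce4a, -1.15, adjusted p = 0.00505), a share near the 35.9% of all genes. Smc6 is a core ATPase of the complex, Nsmce1 its ubiquitin ligase subunit and Nsmce4a the closest relative of Eid3 in it. None of the 10 passed in the change of J2 or of K1 enrichment, where 2.71% and 5.47% of all genes passed. Of 14 tested genes of the thioredoxin and NRF2 list, 5 were higher in DKO input and 4 lower (median -0.13), where 18.8% of all genes were higher and 17.1% lower. Hmox1, haem oxygenase 1 (5.02, adjusted p = 1.33e-04), and Slc7a11, the cystine importer (3.74, adjusted p = 8.38e-04), had the largest rises. Gsr (1.01, adjusted p = 0.00897), Gclc (0.76, adjusted p = 0.00702) and Srxn1 (0.60, adjusted p = 0.0106) were also higher. Nqo1 (-1.28, adjusted p = 4.05e-04) and Gclm (-1.43, adjusted p = 6.23e-04), 2 other NRF2 targets, fell. So did Nfe2l2, the gene of NRF2 itself (-1.27, adjusted p = 6.84e-04), and Prdx1 (-1.18, adjusted p = 0.00225). In this list 1 gene passed in the change of K1 enrichment (Gclm, -1.58, adjusted p = 0.0263) and none in that of J2.

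Rpa1 RNA was strongly represented in every pulldown. Its counts were 4242 and 3774 in control J2 and 3771 and 2824 in control K1, against 219 and 260 in control input. The DKO libraries held 573 and 162 in J2 and 447 and 149 in K1, against 84 and 109 in input. Normalised, that is 311 and 330 CPM in control J2, 243 and 209 CPM in control K1, 132 and 45.6 CPM in DKO J2, and 98.4 and 62.8 CPM in DKO K1. The DKO pulldowns were below the control pulldowns of the same antibody, with no overlap, as were the inputs.

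Relative to input, Rpa1 was 16.5-fold higher in control J2 (log2 4.05, SE 0.49), rank 33 of 15923 genes, and 11.6-fold higher in control K1 (3.54, SE 0.26), rank 39 of 15908. In DKO it was 13.3-fold higher in J2 (3.73, SE 0.49) and 10.9-fold higher in K1 (3.45, SE 0.27). The change between the genotypes was -0.32 for J2 (SE 0.63) and -0.08 for K1 (SE 0.35), less than its standard error in each. The range over the animals was 2.39 to 4.14 for J2 and 2.86 to 3.75 for K1, and DKO replicate 2 was the lowest for both antibodies. Without it the change turned to 0.35 for J2 and 0.29 for K1, and without DKO replicate 1 it was -1.39 and -0.60.

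Smyd4, which starts 108 bases away, was at 5.94 and 6.65 CPM in control J2, 4.90 and 4.15 CPM in control K1, 1.84 and 2.53 CPM in DKO J2 and 1.98 and 0.843 CPM in DKO K1. The last rests on 2 counts. In control it was enriched by J2 (1.44, SE 0.32, adjusted p = 0.0137) and by K1 (0.96, SE 0.34, adjusted p = 0.0480). The J2 call was lost without control replicate 1 (adjusted p = 0.415), without control replicate 2 (0.503), without TMM scaling (0.128) and after thinning to equal depth (0.436). With the animal as a block the K1 value in control was 0.95 (adjusted p = 0.0550), so that call was lost, and it was lost in 7 of 10 alternatives. In DKO the values were 1.31 for J2 (adjusted p = 0.0531) and 0.69 for K1 (adjusted p = 0.341), and the change between the genotypes was -0.13 (SE 0.55, adjusted p = 0.907) and -0.27 (SE 0.64, adjusted p = 0.836). Rpa1 counts per Smyd4 count were between 7.27 and 8.97 in the 4 inputs and between 18.0 and 74.5 in the 8 pulldowns. The ratio was higher in each pulldown than in each input. In DKO pulldowns it divides by only 8 and 9 Smyd4 counts in J2 and 9 and 2 in K1, so its size there is imprecise.

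Ovca2 had the second largest control enrichment of the 6 genes by K1 and the largest by J2. Its counts were 30 and 26 in control input, 917 and 872 in control J2 and 382 and 302 in control K1. The DKO libraries held 16 and 34 in input, 48 and 15 in J2 and 25 and 17 in K1. Normalised, the pulldowns gave 67.2 and 76.3 CPM in control J2, 24.6 and 22.4 CPM in control K1, 11.03 and 4.22 CPM in DKO J2, and 5.50 and 7.17 CPM in DKO K1. Every pulldown was above every input, control pulldowns were above DKO pulldowns, and in control the J2 libraries were above the K1 libraries.

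Relative to input, Ovca2 was 31.3-fold higher in control J2 (log2 4.97, SE 0.47), rank 15 of 15923 genes, and 10.2-fold higher in control K1 (3.35, SE 0.33), rank 45 of 15908. In DKO the values were 2.17 for J2 (SE 0.48) and 1.69 for K1 (SE 0.39). The change between the genotypes was -2.80 for J2 (SE 0.65) and -1.66 for K1 (SE 0.50). Input levels of Ovca2 did not pass the test between the genotypes, as given above. Per animal, J2 minus input was 4.67 and 5.17 in control against 2.82 and 0.63 in DKO, and K1 minus input was 3.23 and 3.41 in control against 1.85 and 1.37 in DKO. Both DKO animals were below both control animals for each antibody. Without DKO replicate 1 the J2 change was -4.07, without DKO replicate 2 it was -1.77, and without control replicate 1 or 2 it was -3.10 or -2.74.

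Rpa1 and Ovca2 are the members with an inverted repeat in the spliced transcript searched. Across the 12 libraries their log2 CPM had r = 0.932, and whether their changes between the genotypes differ from each other was not tested. Control J2 over control K1 was 1.57 for Ovca2 (SE 0.39) and 0.47 for Rpa1 (SE 0.49). Among the tested neighbours no difference between J2 and K1 passed in either genotype. Across all genes edgeR called 0% of 14285 in control (1808 at unadjusted p under 0.05, 333 by DESeq2) and 0% in DKO (530 at unadjusted p under 0.05, 3 by DESeq2). With the animal as a block it called 3959 genes in control and 8 in DKO.

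Dph1 shares 969 exon bases with Ovca2, and its values stayed closer to input. Its counts were 71 and 61 in control input, 150 and 158 in control J2, 139 and 108 in control K1, 32 and 56 in DKO input, 28 and 35 in DKO J2 and 20 and 16 in DKO K1. It was enriched by J2 in control (1.20, SE 0.35, adjusted p = 0.0335) and in DKO (1.42, SE 0.38, adjusted p = 0.0293). The K1 values were 0.65 in control (SE 0.31, adjusted p = 0.122) and 0.67 in DKO (SE 0.38, adjusted p = 0.194). The genotypes differed by 0.21 for J2 (SE 0.51, adjusted p = 0.821) and 0.03 for K1 (SE 0.48, adjusted p = 0.987). Both J2 calls were lost without control replicate 1 (adjusted p = 0.401 in control and 0.15 in DKO) or control replicate 2 (0.641 and 0.187), without TMM scaling (0.276 and 0.176) and after thinning (0.100 and 0.119).

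The raw count of Ovca2 over that of Dph1 was between 0.423 and 0.607 in the 4 inputs, 6.11 and 5.52 in control J2 and 2.75 and 2.80 in control K1. In DKO it was 1.71 and 0.429 in J2 and 1.25 and 1.06 in K1. DKO J2 replicate 2 lies among the inputs, on 15 counts of Ovca2 and 35 of Dph1, and the 3 other DKO pulldowns lie between the inputs and the control pulldowns. Of 7 tested genes of the diphthamide list other than Dph1, Dph3 passed in control J2 (2.38, adjusted p = 0.00204), where 29.8% of all genes passed. In control K1, Dph3 (1.30, adjusted p = 0.00200) and Eef2, the factor that carries diphthamide (1.65, adjusted p = 0.00433), passed, where 39.8% did. Dph3 also passed in the change of J2 (-2.39, adjusted p = 0.0342) and K1 enrichment (-1.92, adjusted p = 0.0203), where 2.71% and 5.47% did. With the animal as a block edgeR called no gene in the change of J2 enrichment (4074 at unadjusted p under 0.05), so that call of Dph3 was lost. Dph3 supplies electrons to the same first step. In input only Eef2 passed (-0.59, adjusted p = 0.0276), where 35.9% of all genes did.

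**Figure D4:**
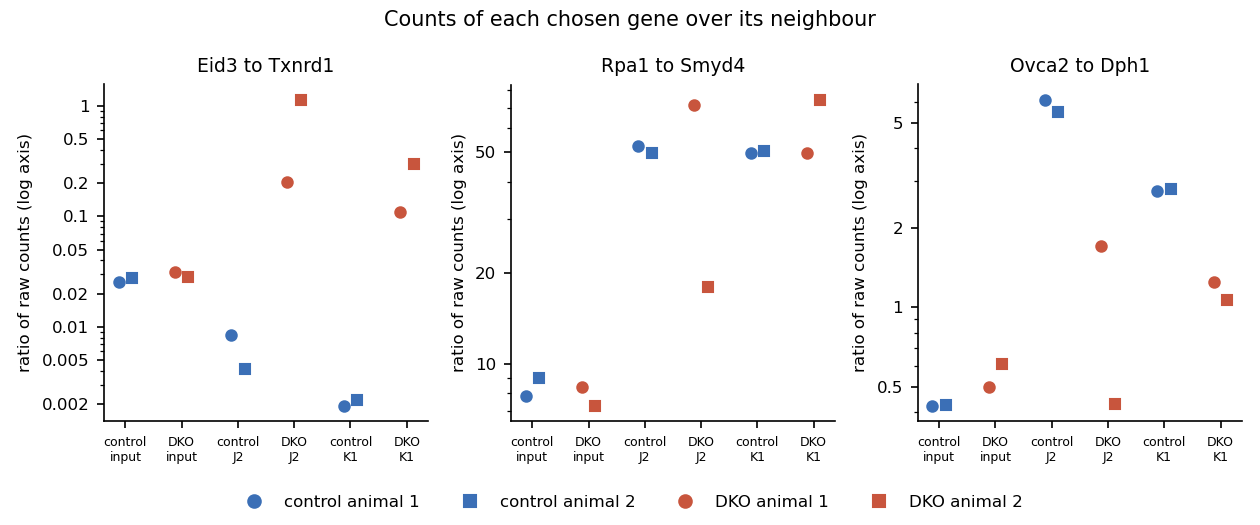
Raw count of Eid3, Rpa1 and Ovca2 divided by that of Txnrd1, Smyd4 and Dph1 in each library (log axes); points are animals. The 4 inputs lie close together in each panel. Eid3 to Txnrd1 falls below them in control pulldowns and rises above them in DKO pulldowns. Rpa1 to Smyd4 is higher in all 8 pulldowns, on 9 Smyd4 counts or fewer in each DKO pulldown. Ovca2 to Dph1 is highest in control J2.

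Of the 3 neighbours, 2 passed in control J2 (Smyd4 and Dph1), where 29.8% of all genes passed, and 2 in control K1 (Txnrd1 and Smyd4), where 39.8% did. In DKO 1 passed for J2 (Dph1), where 25.7% of genes passed, and none for K1, where 35.6% did. None of the 3 passed in either change of enrichment. Counts over 3 genes cannot be told apart from these shares. The fits counted here hold no term for the animal. With the animal as a block, Txnrd1 passed in the change of K1 enrichment and the Smyd4 call in control K1 was lost, as given above.

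Within 100 kb of the 6 genes the files hold 21 further genes, 12 of them tested in input. There 1 was higher (Serpinf2, 1.78, adjusted p = 0.00179) and 3 lower (Hic1, -1.20, adjusted p = 0.0133; Rtn4rl1, -0.76, adjusted p = 0.0222; Smg6, -0.40, adjusted p = 0.0343), a share near the 35.9% over all genes. Hic1, on the other side of Ovca2 from Dph1, was enriched by K1 in control (0.83, SE 0.29, adjusted p = 0.0441) and in DKO (1.80, SE 0.37, adjusted p = 0.00539). Its J2 enrichment was -0.47 in control (adjusted p = 0.350) and 0.90 in DKO (adjusted p = 0.153). Rtn4rl1, between Dph1 and Rpa1, and Serpinf2, beyond Smyd4, passed in neither genotype for either antibody, nor did Nfyb, an NF-Y subunit gene near Txnrd1. Chst11, a chondroitin sulfotransferase gene on the other side of Txnrd1, was enriched by J2 in control (1.24, SE 0.38, adjusted p = 0.0410). It was the only one of 12 surrounding genes tested that passed there, against 29.8% of all genes. In DKO J2, 2 of 12 were higher (Smg6, 1.01, and Mir22hg, 2.13) and 1 lower (Prpf8, -1.31), against 25.7% of all genes. In K1, 3 of 13 were higher in control (Hic1, Smg6, 0.61, and Wdr81, 0.93), against 39.8%, and in DKO 3 were higher (Hic1, Wdr81, 0.95, and Mir22hg, 1.23) and 1 lower (Prpf8, -0.82), against 35.6%. Smg6, Wdr81, Mir22hg and Prpf8 are named only because they passed. In the changes of J2 and K1 enrichment none of 12 and 13 passed, against 2.71% and 5.47% of all genes.

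The genes whose log2 CPM was most like that of Eid3 over the 12 libraries, of 9356 genes, were Ttll3 (r = 0.940), Pisd-ps1 (0.932), Tnip2 (0.930), Cd55 (0.926) and H2-K2 (0.926). For Rpa1 they were Fbxl18 (0.982), Prrc2b (0.982), Mllt6 (0.981), Zfp768 (0.980) and Lad1 (0.974). For Ovca2 they were Ogfod1 (0.987), Tbc1d22b (0.983), Msl2 (0.982), Zfhx3 (0.980) and Tnpo2 (0.979). Of these 15 genes, Fbxl18 held an inverted repeat by the same search (122 columns, 77.9% identity). The 12 points share animals, depth and antibody, so these values describe the pattern only.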

How the data were processed

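Per the labels and the submitters' processing notes, the values the authors deposited are raw counts per gene that ignore strand, from libraries with molecular identifiers; the notes name STAR 2.7.10b, UMI-tools 1.1.4, HTSeq 2.0.2 and the builds mm10 and GRCm38.p4. The annotation release and the overlap mode are not given in the sources used here. Rows that name no gene (outside genes 6.76% to 27.0%, ambiguous 3.65% to 6.11%, aligned to several places 5.54% to 46.7% of reads) were left out. Comparisons were fitted with edgeR 4.0.16 (quasi-likelihood, TMM scaling, filterByExpr with a minimum of 10, Benjamini-Hochberg adjusted p under 0.05), with 2 animals per group, and tested on simulated data. Each fit held both genotypes, also where the comparison lies within a single genotype, and only the library types compared. All groups in a fit shared a common estimate of the spread. Printed CPM were scaled over the 12 libraries. Inverted repeats were searched with blastn 2.17.0+ (e-value 0.001) in 16125 GENCODE M21 transcripts, a search added after seeing the data. Genes matched to GENCODE without version (48058 of 48526). RefSeq promoters matched 5 of 6 genes, all but Eid3.

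Members and lists were chosen with earlier results of these data known. Named genes are the 6 members, Kat2a and Kat2b, list genes that passed, the nearest neighbours and the 5 genes most alike per chosen gene. The values of 1 list gene are not reported here. Alternatives were DESeq2 1.42.0, no TMM scaling, no filter, the animal as a block, a fit of all 12 libraries, thinning to 2220291 counts, and leaving out each animal. In input the block was the replicate number, since each animal has a single input library. Same-numbered libraries of a genotype share the animal's tag in the labels, and their deviations correlated at r between 0.373 and 0.722 over 9742 genes; control and DKO inputs, from different animals, at 0.0386. Replicates are separate animals.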

Additional observations from a re-analysis of the deposited data

Results flagged for a closer look

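Eid3 is listed here because every control animal and every DKO animal moved in opposite directions against input. The change of its J2 enrichment, DKO minus control, was 4.65 and that of its K1 enrichment was 5.19. Since these values chose the gene, the difference was not tested. Eid3 RNA in input did not pass the test between the genotypes (0.22, adjusted p = 0.437 by edgeR).

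Txnrd1 is listed for the reverse pattern, above input in both control animals and below it in both DKO animals. The change was -1.49 for J2 and -1.18 for K1. The test of the difference, the interaction in edgeR, gave an adjusted p of 0.134 and 0.0632, and of 0.0358 for K1 with the animal as a block.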

How the results depend on the processing

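The results rest on 2 animals per group and, in DKO pulldowns, on shallow libraries, so low counts (2 for Smyd4 in DKO K1 replicate 2, 15 for Eid3 in control K1 replicate 2) set the precision. Where an animal is left out, the lone sample is assumed to vary like the other groups. Except where named otherwise, the causes of these shifts were not tested. Eid3's change of K1 enrichment was between 4.36 and 5.74 with an animal left out and 7.95 after thinning. Rpa1's control K1 enrichment was 3.31 and Ovca2's control J2 enrichment 4.59 without TMM scaling, which moved the median of all genes there to -0.23 and -0.44. The median also moved to -0.13 in input, -0.26 in DKO J2, -0.48 in DKO K1 and -0.30 in the K1 change. Without TMM scaling, edgeR did not call Smyd4 in control J2 (adjusted p = 0.128) or control K1 (0.141), nor Dph1 in control J2 (0.276) or DKO J2 (0.176).

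In input, Rpa1 was between -1.33 and -1.13 with an animal left out and -1.27 (not called) with all 12 libraries. Smyd4 was -1.11 by DESeq2, -1.14 with all 12 libraries and between -1.33 and -0.91 with an animal left out. Txnrd1 turned to -0.091 without TMM scaling and -0.10 after thinning, Eid3 to -0.28 after thinning, and Ovca2 ranged from -0.63 to 0.28 with an animal left out (0.077 without control replicate 1, 0.28 without DKO replicate 1). Ovca2 and Smyd4 had too few counts for a thinned input test. Differences near 0 also changed sign elsewhere. For Dph1 the J2 change was -0.093 without the filter and between -0.16 and 0.37 with an animal left out, and the K1 change was -0.065 without TMM scaling, -0.21 after thinning and between -0.11 and 0.13 with an animal left out. For Smyd4 the J2 change was 1.72 and the K1 change 1.13 after thinning. With an animal left out, the K1 change was between -1.38 and 0.29, DKO K1 between -0.43 and 1.26, and J2 against K1 in DKO between -0.065 and 1.60. For Txnrd1, J2 against K1 in control was 0.016 after thinning.

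Counts of genes called by edgeR moved more. With all 12 libraries input gave 1675 genes in place of 5421, the J2 change 898 in place of 432 and the K1 change 59 in place of 870. Thinning gave 3419 in input, 2491 in control J2 (4747), 2142 in DKO J2 (4087), 2991 in control K1 (6324), 3550 in DKO K1 (5659), 210 in the J2 change and 205 in the K1 change. DESeq2 gave 2018 in the J2 change, 333 for J2 against K1 in control and 3 in DKO. Without the filter these were 2453, 66 and 8, and the K1 change gave 1763; without TMM scaling the J2 change gave 669. With the animal as a replicate block, the pairing the labels give, the J2 change gave 0 (4074 at unadjusted p under 0.05) and the K1 change 1912. J2 against K1 then gave 3959 in control and 8 in DKO. Beside the calls of Txnrd1 and Smyd4 given above, the block changed no call of a tested member. In input this setting matched control and DKO libraries by replicate number, which is no pairing of animals, so it does not check the input calls for pairing. Leaving out an animal gave between 0 and 10139 genes in control J2, 337 and 7791 in DKO J2, 0 and 6990 in the J2 change, 281 and 9189 in control K1, 3005 and 5970 in DKO K1, 0 and 3802 in the K1 change, 0 and 5033 for J2 against K1 in control and 0 and 202 in DKO. In control J2 the 0 came without control replicate 1 (2262 at unadjusted p under 0.05) or 2 (2085). The share of calls that were higher fell without TMM scaling from 52.4% to 42.1% in input, 51.1% to 34.6% in control J2, 47.6% to 21.1% in DKO J2, 28.5% to 10.5% in the J2 change, 49.6% to 35.9% in control K1, 41.1% to 22.3% in DKO K1 and 25.1% to 13.2% in the K1 change.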
